A study of Mus musculus with 22 samples.

Results

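The expression difference between mice with 1 Nkx2.1 allele carrying GFP and wild-type mice was compared between the embryonic and the adult lung epithelium. RNA was sequenced from 12 libraries: 3 wild-type (labelled WT, genotype NANCI-+/+) and 3 heterozygous (labelled Nkx, genotype Nkx2.1-GFP/+) libraries at the embryonic stage E18.5, and 3 and 3 of the same genotypes at 6 months of age. The state of the NANCI locus in the Nkx mice was not given separately, nor which stretch of Nkx2-1 the GFP replaces. Embryonic lung cells were enriched with magnetic beads against the epithelial surface protein EpCAM, whereas adult cells were sorted as EpCAM-positive and negative for the leukocyte protein CD45 and the endothelial protein CD31, so age and isolation cannot be told apart. Each age had its own WT controls, and the question was for which genes the heterozygote difference was the same at both ages, opposite, or present at 1 age. A value was deposited for 13034 genes at both ages, of 16674 genes listed at either age, and these 13034 genes were tested together.

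Nkx2-1 encodes a homeodomain transcription factor that marks the lung and thyroid primordia and binds the genes of surfactant proteins in alveolar type 2 (AT2) cells. NANCI is a long noncoding RNA gene beside Nkx2-1. The lung buds from the foregut, the tube that also forms the stomach and liver, and alveolar cells without Nkx2-1 are known to turn on genes of the stomach and of mucus-secreting cells. The embryonic time point lies shortly before birth, when AT2 and flat alveolar type 1 (AT1) cells are differentiating, and the adult one in a lung whose epithelium turns over slowly.

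Levels are given on the log2 scale of the deposited values, and a difference is always Nkx minus WT, so that a difference of 1 is a doubling of the normalised level. A gene was said to rise or fall where the limma p-value, adjusted with the Benjamini-Hochberg method over the 13034 genes, was under 0.05. The ages were normalised separately, so levels set side by side across ages are descriptions only. The standard error (SE) of an effect rests on the spread of all 12 libraries. Nothing in the labels says that the 3 libraries of a group came from separate animals, so the p-values measure the spread between libraries, which may be technical.

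Epithelial genes were high in all 12 libraries (Epcam 12.80 to 13.49), and Sftpc, the surfactant protein C gene of AT2 cells, stood at the highest value of each 6-month library. Markers of other cells were present as well. Despite the sort, the endothelial marker Pecam1 read 11.78 to 13.52 at 6 months against 6.32 to 8.30 at E18.5. Averaged over 16 leukocyte genes, the E18.5 WT libraries stood at 7.78 to 8.10 and the E18.5 Nkx libraries at 4.83 to 6.09. At 6 months the same mean was 8.52 to 8.70 in WT and 7.83 to 9.04 in Nkx. Exon length also moved with genotype, and sex did so in the adult. The Spearman correlation across genes between exon length and the effect was 0.219 at E18.5 and -0.341 at 6 months (12946 genes). By library it was 0.0651, 0.302 and 0.24 in the adult WT libraries and -0.108, -0.361 and -0.215 in the adult Nkx libraries. In the E18.5 libraries it was -0.326, -0.34 and 0.314 in WT and 0.312, -0.136 and 0.232 in Nkx, and these overlapped. From their X- and Y-linked genes, 1 of 3 adult WT and 2 of 3 adult Nkx libraries were female, against 2 of 3 in both E18.5 groups. In bulk samples such as these, fewer cells of a type and less RNA per cell cannot be told apart.

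**Figure D1:**
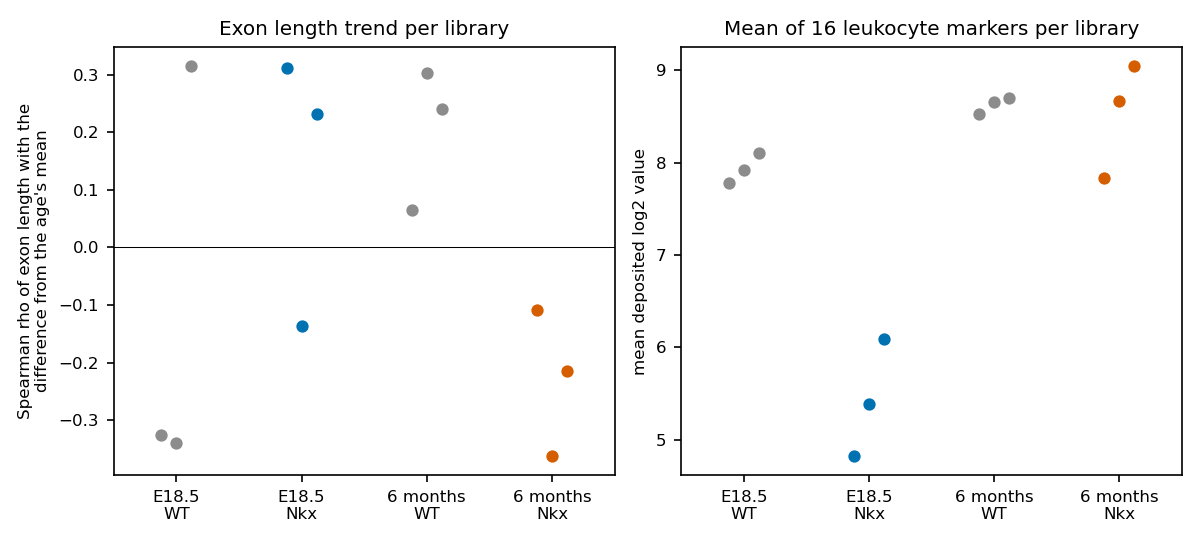
Left, Spearman correlation across genes between exon length and the deviation of a library from the mean of its age, 1 point per library; right, mean log2 level of 16 leukocyte genes, 1 point per library, WT and Nkx at E18.5 and 6 months. The adult Nkx libraries lie below 0 on the left and the adult WT libraries above it; on the right the E18.5 Nkx libraries (4.83 to 6.09) lie below the E18.5 WT libraries (7.78 to 8.10).

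At E18.5, 838 of 13034 genes passed (6.43%), of which 349 were higher (2.68%) and 489 lower (3.75%) in Nkx; at 6 months 416 passed (3.19%), 208 in each direction (1.60% each). The 6-month effect minus the E18.5 effect passed for 278 genes (2.13%), 151 positive (1.16%) and 127 negative (0.974%). Which age had more calls depended on the model: with array weights, 468 genes passed at E18.5 and 1218 at 6 months. These weights were set per age, so all libraries of an age shared 1 weight. The number of calls also depended on single libraries. Without E18.5 WT replicate 3, whose length trend of 0.314 went against -0.326 and -0.34 in the other E18.5 WT libraries, 2154, 766 and 1441 genes passed for E18.5, 6 months and their difference. Without E18.5 WT replicate 1, 424 passed at E18.5, and without 6-month Nkx replicate 2, 78 passed at 6 months and 57 in the difference.

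The effects at the 2 ages overlapped in part. Among the 349 genes higher at E18.5, 46 were also higher at 6 months, which is 13.2% of the E18.5 list and 22.1% of the 6-month list. Among the 489 lower at E18.5, 55 were also lower at 6 months, 11.2% and 26.4% of the lists. Regardless of the adult test, 64.5% of the genes higher at E18.5 had a positive adult difference (51.9% of all genes did) and 68.9% of those lower had a negative one (48.1% of all genes did). Their median adult differences were 0.20 and -0.24, against median embryonic ones of 1.08 and -1.17. Across all genes, which are not independent replicates, Pearson's r between the effects was 0.237 and Spearman's rho 0.113.

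Genes were placed in classes by 3 tests: the effect at each age and the difference of the effects. In all, 101 genes agreed in sign and passed at both ages, and 6 passed at both with opposite signs. A further 175 genes passed at E18.5 alone and 60 at 6 months alone, where "alone" required that the difference of the effects passed as well. Another 556 passed at E18.5 and 249 at 6 months with no called difference between the ages, and for these it remains undecided whether the ages differ. Another 33 passed in the difference only, and 11854 genes (90.95%) passed in none. With sex as a term the classes held 44, 3, 103 and 13 genes (40, 1, 91 and 11 of them in the same class as before). With each library's length trend removed they held 116, 8, 139 and 50 (87, 5, 122 and 36 in the same class).

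**Figure D2:**
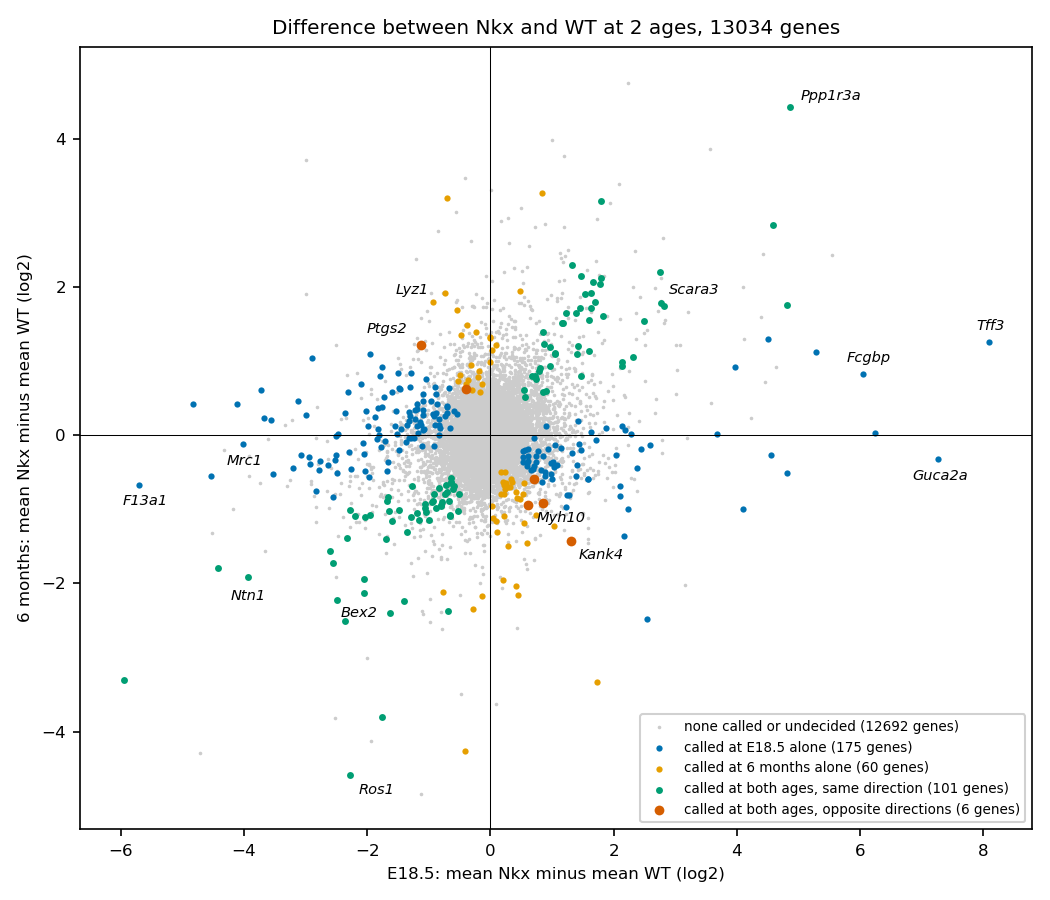
Nkx minus WT at E18.5 (x axis, log2) against 6 months (y axis, log2) for 13034 genes, coloured by class. The 101 agreeing genes lie in the lower left and upper right quadrants, the 6 opposing genes in the other two, and the genes that passed at 1 age alone mostly near an axis.

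Nkx2-1 itself (ENSMUSG00000001496, chromosome 12) showed no difference at E18.5 that passed the test. The E18.5 WT libraries read 14.48, 14.84 and 14.93 and the Nkx libraries 14.77, 14.73 and 14.95 (0.07 ± 0.16 SE, adjusted p = 0.842, n = 3 and 3), and the groups overlapped. At 6 months WT read 14.17, 14.55 and 14.40 and Nkx 13.96, 13.77 and 13.85 (-0.52 ± 0.16 SE, adjusted p = 0.0892, n = 3 and 3). All adult Nkx libraries lay under all adult WT libraries, but the difference missed the threshold. It passed where each age had an array weight of its own (adjusted p = 0.0309) and in no other alternative. The adult effect minus the embryonic one was -0.58 ± 0.22 SE and missed the threshold (adjusted p = 0.178). None of the 7 measured genes of the Nkx2-1 neighbourhood passed limma's test at either age; at an unadjusted p under 0.05 there were 1 at E18.5, 2 at 6 months and 2 in the difference.

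The 46 genes higher at both ages had median effects of 1.46 at E18.5 and 1.52 at 6 months, and the 55 lower at both had -1.19 and -1.04. In all 101 the WT and Nkx libraries did not overlap at either age, which held in the same direction for 683 of all genes (5.24%). At a single age, groups that do not overlap were common, with Nkx higher in 11.8% and lower in 10.5% of genes at E18.5 and in 17.9% and 15.4% at 6 months. The E18.5 effect was the larger in 20 of the 46 and 34 of the 55. Only 4 of the 101 differed between the ages by the test: Ccl9, Zmat4, Bicc1 and St6galnac4. The median exon length was 3659 bases in the genes higher at both ages, 6068 in those lower at both, and 4444 in all genes.

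Ppp1r3a, which encodes a subunit that targets protein phosphatase 1 to glycogen, had the largest effect among the genes higher at both ages. Its E18.5 WT libraries read 6.29, 5.90 and 7.79 and the Nkx libraries 11.44, 10.97 and 12.18. Its 6-month WT libraries read 4.74, 6.56 and 5.79 and the Nkx libraries 10.15, 10.52 and 9.77. Within each age, all Nkx libraries thus lay above all WT libraries by more than 3 log2 units, and the difference was 29.2-fold at E18.5 (4.87 ± 0.52 SE, adjusted p = 0.000133) and 21.8-fold at 6 months (4.44 ± 0.52 SE, adjusted p = 0.00106). Scara3, a member of the class A scavenger receptors, rose from 5.60, 5.90 and 5.60 to 8.45, 8.63 and 8.31 at E18.5, and from 7.20, 6.45 and 6.76 to 8.84, 8.76 and 8.21 at 6 months. Mgst2, a microsomal glutathione transferase, rose by 1.80 and 2.13.

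Stomach and mucus genes were among the genes higher at both ages. Pgc, which encodes the stomach protease precursor progastricsin, rose from 9.67, 9.65 and 9.21 to 11.24, 11.73 and 10.96 at E18.5 and from 7.60, 8.41 and 6.97 to 11.03, 10.58 and 10.88 at 6 months (1.80 and 3.17). Tff2, a trefoil peptide of gastric mucus, stood at the lowest value of every E18.5 WT library, which is read here as no reads, and at 6.79, 5.69 and 5.18 in E18.5 Nkx. At 6 months Tff2 was well detected in WT at 9.41, 8.41 and 10.65 and rose to 12.49, 12.73 and 11.80. Agr2, an endoplasmic reticulum protein needed for mucin secretion, rose from 7.76, 7.49 and 8.12 to 11.19, 10.40 and 10.02 at E18.5 (2.75 ± 0.48 SE, adjusted p = 0.00454), and from 5.40, 5.69 and 7.60 to 8.41, 8.77 and 8.10 at 6 months (2.20 ± 0.48 SE, adjusted p = 0.0285). The adult call of Agr2 was lost without any 1 of 6-month WT replicates 1 and 2 and the 3 6-month Nkx replicates (adjusted p up to 0.130). It was also lost with sex as a term or the length trend removed (0.0585 and 0.0684). The adult call of Tff2 was lost without 6-month WT replicate 2 or 6-month Nkx replicate 1 or 2 (up to 0.0805). The calls of Ppp1r3a, Scara3, Mgst2 and Pgc at both ages held without any 1 of the 12 libraries.

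Plasma protein genes of the liver also rose at both ages. Alb, serum albumin, rose by 2.32 at E18.5 and 1.05 at 6 months, and Itih2, a heavy chain of the inter-alpha-trypsin inhibitor, by 1.48 and 2.16. The adult call of Alb was lost without any 1 of 6-month WT replicates 1 and 2 and the 3 6-month Nkx replicates (adjusted p up to 0.123), and with sex as a term, the length trend removed or the replicate number as a block (0.0728, 0.0742 and 0.0617). For Itih2 the E18.5 call was lost without any 1 of 7 libraries (up to 0.130) and the adult call without 6-month WT replicate 2 or 6-month Nkx replicate 2 (up to 0.0754). Ccl9, a chemokine, was the gene of this direction whose effect differed between the ages. It rose from 4.15, 4.29 and 4.15 to 8.85, 9.11 and 9.05 at E18.5, and from 7.31, 6.45 and 8.32 to 9.26, 9.40 and 8.71 at 6 months. The groups overlapped at neither age, and the adult effect minus the embryonic one was -3.05 ± 0.54 SE (adjusted p = 0.0183). The adult call of Ccl9 was lost without any 1 of 4 libraries (up to 0.131), with sex (0.0611) and with the replicate block (0.0593). Lypd6, a modulator of Wnt signalling, rose by 1.78 and 2.05, calls lost without any 1 of 5 and 4 libraries (up to 0.137 and 0.0993) and with sex in the adult (0.0886). With the replicate block both calls of Lypd6 were lost (0.0513 and 0.0525).

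Ros1, a receptor tyrosine kinase, had the largest adult decrease among the genes lower at both ages. Its E18.5 WT libraries read 12.24, 11.28 and 12.16 and the Nkx libraries 10.30, 9.09 and 9.46. Its 6-month WT libraries read 11.14, 10.53 and 9.64 and the Nkx libraries 5.99, 4.88 and 6.67. No Nkx library reached a WT library of its age, and Ros1 fell by 2.28 ± 0.48 SE at E18.5 (adjusted p = 0.0123) and by 4.59 ± 0.48 SE at 6 months (adjusted p = 0.000441). The 2 effects did not differ by the test (adjusted p = 0.0926), and the E18.5 call was lost without E18.5 WT replicate 1 or E18.5 Nkx replicate 2 or 3 (up to 0.0650). Klk14, a secreted serine protease, fell by 1.75 and 3.80; its E18.5 call was lost without any 1 of 7 libraries (up to 0.161) and with sex or the length correction (0.0560 and 0.0547).

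Ntn1, the secreted guidance factor netrin-1, fell from 8.32, 8.61 and 8.73 to 5.25, 3.84 and 4.76 at E18.5 and from 11.11, 11.13 and 11.65 to 9.91, 9.67 and 8.57 at 6 months (-3.94 and -1.91). Bex2, an X-linked gene of AT2 cells, fell from 13.23, 13.24 and 12.32 to 11.62, 11.26 and 11.02 at E18.5 and from 12.89, 12.42 and 11.67 to 9.67, 9.91 and 10.20 at 6 months (-1.63 and -2.40), and both calls held without any 1 library. Nos2, the inducible nitric oxide synthase, fell at both ages (-2.36 and -2.50), as did Mrc2, an endocytic collagen receptor (-2.05 and -1.94). Ppp1r1a, an inhibitor of protein phosphatase 1, fell by 2.48 and 2.22, and Snhg11, a noncoding host of small nucleolar RNAs, by 2.04 and 2.12. Acaca, acetyl-CoA carboxylase, which makes the substrate for fatty acid synthesis, fell by 0.78 and 0.90. The embryonic and adult calls of Acaca were lost without any 1 of 6 and 5 libraries (adjusted p up to 0.153 and 0.139), and both with sex (0.0595 and 0.0890). Those of Ppp1r1a were lost without any 1 of 2 and 8 libraries (up to 0.0526 and 0.164), the adult one with sex as well (0.124). The adult calls of Snhg11, Ntn1, Nos2 and Mrc2 were lost without any 1 of 5, 4, 2 and 1 libraries (up to 0.0795).

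Among the genes lower at both ages, 3 differed in size between them. Zmat4, a zinc finger gene, fell by 4.41 at E18.5 and 1.79 at 6 months (adjusted p of the difference 0.0359). Its adult call was lost without any 1 of 6 libraries and with sex (adjusted p up to 0.146 and 0.0775), and the difference without any 1 of 9 (up to 0.114). St6galnac4, a sialyltransferase, fell by 2.27 and 1.01 (adjusted p = 0.0311). Bicc1, an RNA-binding protein, went the other way, with -0.69 at E18.5 and -2.38 at 6 months (adjusted p = 0.00861). Bicc1 and St6galnac4 were picked out after their values were seen, as was Atp6v1g3, a proton pump subunit. Atp6v1g3 read 6.79, 7.11 and 7.08 in E18.5 WT and 1.0, 1.0 and 1.13 in E18.5 Nkx, which are the lowest values of those libraries. At 6 months it read 6.35, 6.52 and 5.89 in WT and 3.07, 3.35 and 2.43 in Nkx (adjusted p = 0.00378).

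**Figure D3:**
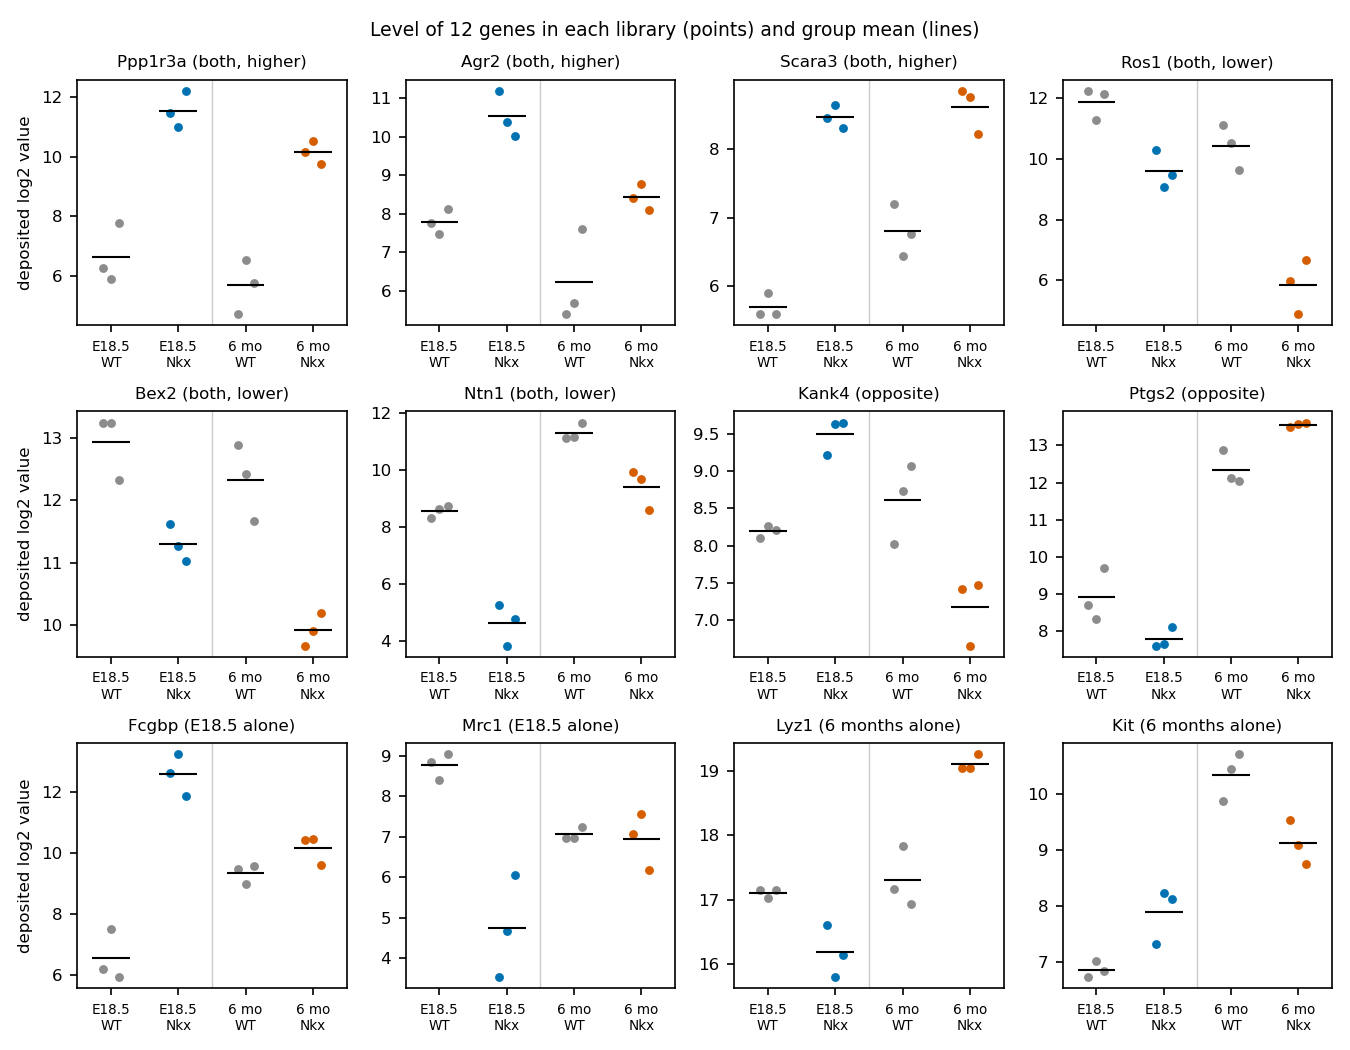
Log2 level of 12 genes, 1 point per library and a bar at the group mean, in WT and Nkx at E18.5 and 6 months. Ppp1r3a, Agr2 and Scara3 were higher in Nkx at both ages, Ros1, Bex2 and Ntn1 lower at both, Kank4 and Ptgs2 moved in opposite directions, Fcgbp and Mrc1 passed at E18.5 alone and Lyz1 and Kit at 6 months alone.

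The promoters of 2 genes higher at both ages and 2 lower at both are shown because these genes moved together in both comparisons. They are the 250 bases upstream of the start site, 5′ to 3′ on the gene's strand, from RefSeq on GRCm38.p6. They were searched on both strands for CAAGTG and CTCAAG, short words of NKX2 homeodomain binding sites, with matches in capitals. The regions are Ppp1r3a (chr6:14755275-14755524, minus strand), Agr2 (chr12:35992675-35992924, plus strand), Ros1 (chr10:52195245-52195494, minus strand) and Klk14 (chr7:43690168-43690417, plus strand).
Ppp1r3a: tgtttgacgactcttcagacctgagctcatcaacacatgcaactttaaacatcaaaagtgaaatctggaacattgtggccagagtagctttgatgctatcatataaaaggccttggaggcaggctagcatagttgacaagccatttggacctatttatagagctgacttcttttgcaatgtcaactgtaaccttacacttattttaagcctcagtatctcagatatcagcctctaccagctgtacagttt
Agr2: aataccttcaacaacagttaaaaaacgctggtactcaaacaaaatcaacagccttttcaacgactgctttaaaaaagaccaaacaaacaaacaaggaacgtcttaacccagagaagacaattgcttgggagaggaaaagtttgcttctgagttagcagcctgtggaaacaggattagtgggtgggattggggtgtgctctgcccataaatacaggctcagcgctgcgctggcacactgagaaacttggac
Ros1: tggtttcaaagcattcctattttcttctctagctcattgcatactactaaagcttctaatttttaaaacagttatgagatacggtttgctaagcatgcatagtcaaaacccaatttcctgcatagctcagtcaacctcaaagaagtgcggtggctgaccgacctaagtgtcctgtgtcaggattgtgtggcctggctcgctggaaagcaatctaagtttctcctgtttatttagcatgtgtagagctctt
Klk14: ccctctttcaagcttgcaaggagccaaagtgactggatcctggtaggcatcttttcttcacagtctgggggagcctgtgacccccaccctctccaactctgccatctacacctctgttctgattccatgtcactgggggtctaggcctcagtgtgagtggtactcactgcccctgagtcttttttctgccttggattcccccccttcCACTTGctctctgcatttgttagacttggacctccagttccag
Klk14 held the word on its minus strand, and the other windows held neither. Of the 12918 promoters matched to genes measured at both ages, 20.065% held either word, as did 22.602% of all 32851 promoters of this length. Promoters were matched for 32 of the 46 genes higher at both ages (37 promoters, 5 with either word, 13.514%) and for 43 of the 55 lower at both (57 promoters, 13 with either word, 22.807%). A match is a string of letters and not a measured binding site.

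At the 2 ages, 6 genes moved in opposite directions, 4 of them higher in the embryo and lower in the adult. Kank4, a gene of a family that links the cytoskeleton to adhesions, rose from 8.10, 8.27 and 8.21 to 9.21, 9.62 and 9.65 at E18.5 and fell from 8.02, 8.73 and 9.06 to 7.42, 6.66 and 7.47 at 6 months. The groups did not overlap at either age in any of the 6 genes (2.40% of all genes had such groups in opposite directions). The effects of Kank4 were 1.30 ± 0.29 SE (adjusted p = 0.0169) and -1.42 ± 0.29 SE (adjusted p = 0.0237), with a difference of -2.72 ± 0.41 SE (adjusted p = 0.00862). Lamc1, the laminin gamma 1 chain of basement membranes, rose from 14.79, 14.77 and 14.81 to 15.47, 15.57 and 15.47 in the embryo and fell from 12.20, 12.43 and 12.22 to 11.70, 11.75 and 11.65 in the adult. The groups did not overlap at either age. Myh10, the heavy chain of a non-muscle myosin, rose by 0.61 and fell by 0.95, and Nup210, a nuclear pore membrane protein, rose by 0.86 and fell by 0.92.

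Ptgs2 and Elf5 moved the other way. Ptgs2, the inducible cyclooxygenase of prostaglandin synthesis, fell from 8.72, 8.32 and 9.71 to 7.62, 7.65 and 8.11 at E18.5 and rose from 12.87, 12.11 and 12.04 to 13.49, 13.58 and 13.61 at 6 months (-1.13 and 1.22, difference 2.35 ± 0.43 SE, adjusted p = 0.0197). Elf5, an ETS transcription factor of the distal lung epithelium, fell from 13.81, 13.70 and 13.78 to 13.47, 13.32 and 13.32 and rose from 11.08, 11.11 and 10.97 to 11.78, 11.67 and 11.59. The difference of the effects held without any 1 library for Kank4, Lamc1, Myh10, Nup210 and Elf5. For Ptgs2 it was lost without 6-month WT replicate 2 or 6-month Nkx replicate 2 (adjusted p up to 0.0564). The single-age effects were less stable. The E18.5 call was lost without any 1 of 11 libraries for Elf5 (adjusted p up to 0.178), 10 for Ptgs2 (0.136), 7 for Myh10 (0.187) and 3 for Kank4 (0.0777). No opposing gene kept its adult call without every library in turn, and without 6-month Nkx replicate 2 no gene met the rule for opposing effects. With sex as a term, only Nup210 of these genes still met that rule, and Ptgs2 and Elf5 passed at neither age. The median exon length of the 4 genes higher in the embryo was 9365 bases.

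A further 68 genes were higher in Nkx at E18.5 alone, with median effects of 1.30 at E18.5 and -0.31 at 6 months. Fcgbp, a secreted component of mucus, read 6.21, 7.52 and 5.93 in E18.5 WT and 12.64, 13.26 and 11.89 in E18.5 Nkx, and 9.49, 8.98 and 9.59 in adult WT and 10.45, 10.46 and 9.63 in adult Nkx. The embryonic effect was 6.04 ± 0.42 SE (adjusted p = 2.87e-05), the adult one 0.83 (adjusted p = 0.274), and they differed by -5.22 ± 0.59 SE (adjusted p = 0.00298). Ern2, an endoplasmic reticulum stress sensor of mucus-secreting cells, rose from 3.12, 3.99 and 4.15 to 8.45, 8.27 and 8.06 at E18.5, and at 6 months read 5.57, 5.33 and 5.95 in WT and 7.06, 7.09 and 6.60 in Nkx (adult effect 1.30, adjusted p = 0.0691). For Fcgbp, Ern2, Tff3, a trefoil peptide of goblet cells, Ces1c, a carboxylesterase, and Pkp1, a desmosomal plaque protein, both the E18.5 call and the difference held without any 1 library. The difference held so for 5 of the 13 genes of this class that the rule names.

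Some of these genes were hardly detected in the adult of either genotype. Guca2a, the gut peptide guanylin, read 10.58 to 11.89 in E18.5 Nkx and 2.34 to 3.93 in all 6 adult libraries. Ces1c read 9.40 to 10.57 in E18.5 Nkx and 2.29 to 4.95 in the adult. Muc2, the main gel-forming mucin of the intestine, was detected in adult WT (7.42, 6.33 and 5.67) as well as adult Nkx (4.73, 5.15 and 6.54). Growth and cell cycle genes were in this class too. Igf2, an imprinted growth factor, rose by 1.40 at E18.5 from a level of 13.48 to 13.73, and in the adult it stood at 6.86 to 7.94 with an effect of -0.40. Ccna2, cyclin A2, rose by 1.44, with -0.12 in the adult; the difference of its effects was lost without any of 10 libraries (adjusted p up to 0.117).

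In the other direction, 107 genes were lower in Nkx at E18.5 alone, with medians of -1.53 and 0.18. Several are genes of macrophages. Mrc1, the mannose receptor, read 8.86, 8.39 and 9.04 in E18.5 WT and 3.52, 4.67 and 6.07 in E18.5 Nkx, and 6.97, 6.96 and 7.25 in adult WT and 7.06, 7.57 and 6.19 in adult Nkx (-4.01 and -0.12, difference 3.89, adjusted p = 0.0221). Adgre1, a surface receptor that marks macrophages, had effects of -4.10 and 0.42, and F13a1, a coagulation factor subunit of macrophages, -5.70 and -0.66. Of 16 leukocyte genes measured, 11 fell and none rose at E18.5, none passed at 6 months (1 at an unadjusted p under 0.05), and the difference passed for 6. The median effects were -2.53 and -0.13, against 0.02 for all genes at each age. Lyz2 is the member that the AT2 list also holds. The labels name a gate against CD45 for the adult cells and none for the E18.5 cells. Without E18.5 WT replicate 1, 7 leukocyte genes fell at E18.5 and for none did the difference pass. The part of leukocyte RNA in the other genes of this class was not tested.

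Epithelial genes also fell at E18.5 alone. Napsa, an aspartic protease that processes surfactant protein B in AT2 cells and was picked out after its values were seen, fell from 14.97, 14.99 and 14.08 to 12.83, 12.81 and 12.29, and at 6 months read 16.35, 16.16 and 16.07 in WT and 15.71, 15.77 and 15.66 in Nkx (-2.03 and -0.48, adjusted p of the difference 0.0320). Cav1, the caveolae protein of AT1 and endothelial cells, fell by 0.84 with 0.14 in the adult, and Rtkn2, a gene of AT1 cells, by 1.95 with 1.10. With sex as a term the adult rise of Rtkn2 passed too (adjusted p = 0.0380), which made it an opposing gene, and with the replicate block neither age passed (E18.5 adjusted p = 0.0539). Its E18.5 call was lost without any 1 of 5 libraries (up to 0.107). Scgb1a1, the secretoglobin of club cells, fell by 1.76 with 0.93 in the adult, where all 3 Nkx libraries and 1 WT library stood at the next to highest value of the scale. Id2, an inhibitor of differentiation expressed in the embryonic lung tips, fell by 0.87 with 0.43, and Usp18, an interferon-induced protease, by 1.77 with -0.16. Nwd2, Cped1, Slfn2 and Cst8 were also among the largest differences, with E18.5 effects of -3.55, -3.66, -3.72 and -2.99. Of the 14 genes of this class that the rule names, the difference held without any 1 library in Nwd2 alone. It was lost without any 1 of 9 libraries for Scgb1a1, Rtkn2, Cst8, F13a1 and Lyz2 (adjusted p up to 0.118), 8 for Usp18 and 7 for Cav1. The E18.5 call held in 12 of the 14, with Rtkn2 and Scgb1a1 as exceptions. The median exon length was 6031 bases in the genes higher at E18.5 alone and 2975.5 in those lower.

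At 6 months alone, 25 genes were higher in Nkx, with medians of -0.29 at E18.5 and 1.15 at 6 months. Olfm4, a secreted glycoprotein of intestinal stem cells, read 7.50, 6.51 and 7.60 in E18.5 WT and 6.47, 6.26 and 6.79 in E18.5 Nkx (-0.70, adjusted p = 0.259), and rose from 4.74, 4.82 and 4.55 to 7.66, 7.98 and 8.10 in the adult (3.21 ± 0.33 SE, adjusted p = 0.000441). The effects differed by 3.91 ± 0.47 SE (adjusted p = 0.00298). Lyz1, a lysozyme that AT2 cells make, rose from 17.17, 17.83 and 16.93 to 19.04, 19.04 and 19.26 in the adult, and at E18.5 read 17.15, 17.03 and 17.15 in WT and 16.61, 15.80 and 16.14 in Nkx. Lyz1 and Lyz2 are close copies, and reads may have been split between them. Veph1 rose by 3.28 (0.84 at E18.5), Iyd, the iodotyrosine deiodinase known from the thyroid, by 1.95 (0.48), Edn2, the peptide endothelin 2, by 1.93 (-0.74) and Sphk1, a sphingosine kinase, by 1.69 (-0.54). Lpcat2, a phospholipid acyltransferase, rose by 1.40 (-0.24) and Epdr1 by 1.49 (-0.38).

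The 35 genes lower at 6 months alone had medians of 0.26 and -0.95. Adamtsl1, an extracellular matrix protein, stood at 9.93, 10.06 and 10.42 in E18.5 WT and 10.50, 10.62 and 10.55 in E18.5 Nkx, and fell from 10.31, 10.40 and 10.11 to 7.75, 8.61 and 8.37 in the adult (-2.03 ± 0.21 SE, adjusted p = 0.000441). Atp6v0a4, a subunit of the vacuolar proton pump, stood at 13.48 to 13.94 in all 6 embryonic libraries and fell from 9.21, 8.64 and 9.45 to 6.55, 7.33 and 6.40 in the adult. Kit, the stem cell factor receptor, read 6.74, 7.03 and 6.84 in E18.5 WT and 7.33, 8.23 and 8.14 in E18.5 Nkx (1.03, adjusted p = 0.0561), and fell from 9.88, 10.46 and 10.72 to 9.54, 9.09 and 8.76 in the adult (-1.23, adjusted p = 0.0431). Kit's adult call was lost without 7 of the 12 libraries in turn (adjusted p up to 0.150). It was also lost with sex as a term, the length trend removed or the replicate block (0.0528, 0.0675 and 0.0641). Armcx4 fell by 2.16, Zfp618 by 2.16, Rasd2, a Ras-related GTPase, by 1.95 and Col7a1, the collagen of anchoring fibrils, by 1.46. Greb1 fell by 3.33, with 3.07, 6.97 and 5.26 in the adult Nkx libraries.

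The calls of Olfm4, Lyz1, Adamtsl1, Armcx4 and Atp6v0a4 at 6 months and in the difference held without any 1 library, which makes 5 of the 17 named genes of these 2 classes. The difference was lost without any 1 of 10 libraries for Iyd (adjusted p up to 0.0918), 8 each for Edn2, Lpcat2, Sphk1, Rasd2, Col7a1 and Bub1b (up to 0.113), 7 for Zfp618 and 3 to 5 for Veph1, Epdr1, Kit and Greb1. The median exon length was 3388 bases in the genes higher at 6 months alone and 8880 in those lower, against 4444 in all genes. With the length trend removed, 36 of the 60 genes stayed in the class, and with sex as a term 11 did.

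The gene lists described next were compiled from textbook knowledge of the cell types and pathways, with earlier results of these data known. Their counts are given beside the shares of all genes above and were not tested as sets. Tff2 is in the mucus and the gut list, Muc5b in the mucus and the club cell list, and Ern2 in the mucus list and that of the unfolded protein response.

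The mucus genes that passed were all higher in Nkx, at both ages. Of 19 genes of goblet cells and mucus, 12 rose and none fell at E18.5, and 5 rose and none fell at 6 months. The median effects were 1.83 and 1.13, and the difference passed for 3, all with the smaller effect in the adult (Tff3, Fcgbp and Ern2). Muc5ac, a gel-forming airway and stomach mucin, rose from 4.49, 4.76 and 4.15 to 7.33, 7.49 and 7.05 at E18.5 and from 7.46, 6.52 and 8.16 to 9.13, 9.27 and 8.98 at 6 months. Spdef, the transcription factor of goblet cell differentiation, rose by 1.83 and 1.62, and Creb3l1, a membrane-bound transcription factor, by 0.90 and 0.60. Muc5b, the other airway mucin, rose by 4.10 at E18.5, and its adult difference of 2.0 missed the threshold (adjusted p = 0.238). Fut2, a fucosyltransferase that decorates mucins, rose by 3.00 (1.22 in the adult) and Spink4, a protease inhibitor of goblet cells, by 5.55 (2.44 in the adult). Muc5ac, Spdef, Creb3l1 and Fut2 were picked out after their values were seen. The adult count was 0 without 6-month WT replicate 2 and 1 with sex as a term.

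**Figure D4:**
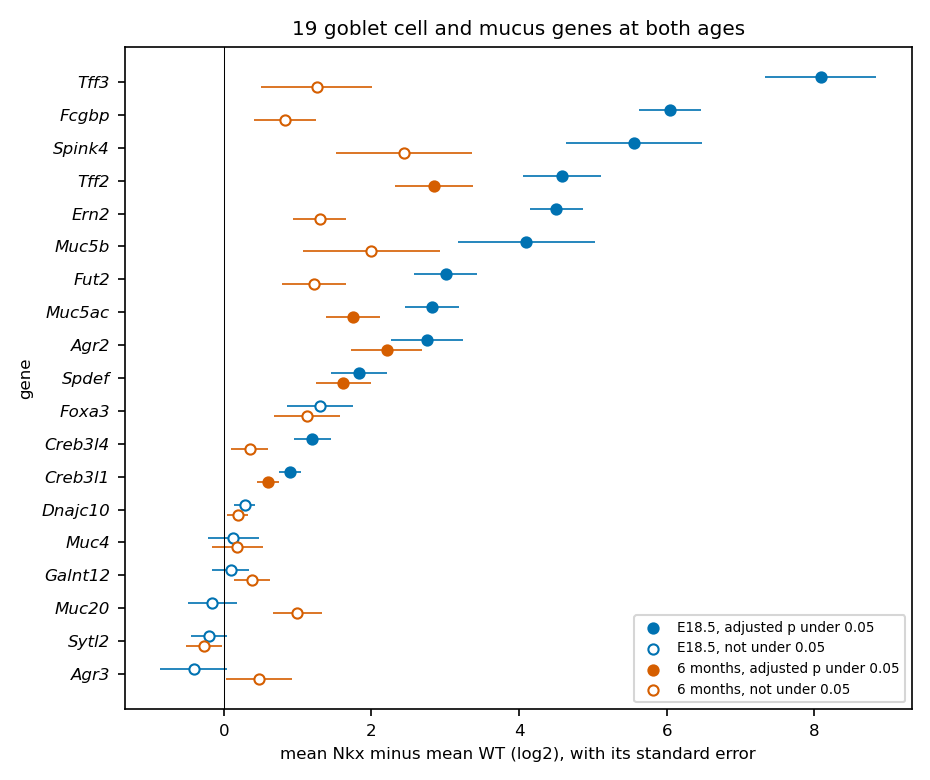
Nkx minus WT (log2, with the SE) at E18.5 and 6 months for 19 genes of goblet cells and mucus; filled points have an adjusted p under 0.05. At E18.5 12 points are filled, all positive, and at 6 months 5.

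The genes of the stomach and gut that passed were likewise all higher in Nkx. Of 19, 8 rose at E18.5 and 4 at 6 months, none fell, and the medians were 1.15 and 0.40. Hnf4a, a nuclear receptor that directs gut and liver epithelium, rose from 1.66, 2.89 and 1.13 to 6.93, 6.26 and 5.75 at E18.5 and read 4.95, 4.13 and 5.15 in adult WT and 6.88, 6.25 and 8.45 in adult Nkx (4.42 and 2.45, adult adjusted p = 0.0582). Muc13, a membrane mucin of the gut, was at the lowest value of all 3 E18.5 WT libraries and at 6.66, 6.39 and 4.76 in E18.5 Nkx, with an adult difference of 0.92. Cym, the milk-clotting protease chymosin, rose by 4.77 in the adult with 2.24 at E18.5 (adjusted p = 0.176). Guca2a and Muc2 were the members whose effects differed between the ages. Hnf4a was picked out after its values were seen. Leaving out 1 library gave between 1 and 5 adult calls. Of 7 plasma protein genes of the liver type, 2 rose at E18.5 and 3 at 6 months; Hpx, hemopexin, rose by 2.28 in the adult with 0.59 in the embryo.

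Genes of AT2 cells moved in both directions. Of 38, 11 fell and 1 rose at E18.5, and 2 fell and 2 rose at 6 months, with medians of -0.64 and -0.33. Sftpa1, a surfactant protein, fell by 1.49 (-0.39 in the adult), S100g, a calcium-binding protein, by 2.16 (-0.55), and Cebpa, a transcription factor, by 0.75 (-0.33); these 3 were picked out after their values were seen. Lyz2, a lysozyme of AT2 cells and macrophages, fell by 2.52 with -0.34 in the adult. Chia1, an acidic chitinase, rose by 2.24 at E18.5 and read -0.99 in the adult, but its E18.5 libraries spread from 12.92 to 15.57 in Nkx, and without E18.5 WT replicate 1 the rise missed the threshold (adjusted p = 0.0611). The surfactant genes Sftpc and Sftpb passed at neither age (Sftpc -0.85 and 0.00, Sftpb -0.68 and -0.64). All adult Sftpc values stood at the top of the scale, where no change can show. E18.5 WT replicates 1 and 2 also stood at the top of their scale (19.62), so the E18.5 difference of Sftpc may be understated. Of 37 lipid synthesis genes (fatty acids and cholesterol), 2 fell at E18.5, and 2 fell and 1 rose at 6 months. Fads1, a fatty acid desaturase, fell by 0.96 at E18.5 (0.04 in the adult), and Acly, ATP citrate lyase, by 0.79 in the adult (-0.24 in the embryo).

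Club and secretory cell genes had more increases than decreases at each age. Of 26, 4 rose and 1 fell at E18.5, and 8 rose and 1 fell at 6 months, with medians of 0.25 and 0.94. Retnla, a resistin-like secreted protein, rose from 11.70, 9.65 and 12.26 to 15.07, 15.80 and 14.71 in the adult (3.99, adjusted p = 0.00209), with 1.0 in the embryo (adjusted p = 0.296). Chad, chondroadherin, rose by 2.35 (1.18 in the embryo) and Scgb3a2, a secretoglobin picked out after its values were seen, by 1.85 (0.92). Glutathione transferases were among the members: Gsto1 rose by 1.45 and 1.72, Gsta4 by 1.04 and 1.11, and Gstm2 by 0.81 and 0.91. Gsta3 rose by 0.95 in the adult with -0.32 in the embryo, a difference that passed (adjusted p = 0.00903). The glutathione transferases were picked out after their values were seen, and reads may be shared between family members. The adult WT libraries differed among themselves in club cell genes, with Scgb1a1 at 19.26, 18.44 and 20.24.

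Of 36 AT1 genes, 1 rose and 4 fell at E18.5 and none passed at 6 months (5 at an unadjusted p under 0.05; medians 0.01 and 0.24). Ndnf, a secreted neurotrophic protein, rose by 2.10 at E18.5 (0.92 in the adult), and Pxdc1 fell by 1.18 (0.37). For comparison, 2.68% of all genes rose and 3.75% fell at E18.5, and 1.60% passed each way at 6 months. Of 34 ciliated cell genes, 1 fell at E18.5, Rsph9 of the radial spoke by 0.71, and none passed at 6 months (4 at an unadjusted p under 0.05; medians -0.43 and -0.28). Of 14 claudins and keratins, 1 rose at E18.5 and 4 at 6 months. These 4 were tight junction claudins: Cldn4 by 1.73 (-0.06 in the embryo), Cldn2 by 1.69 (0.16), Cldn10 by 1.45 (-0.07) and Cldn23 by 1.21 (-0.04), and in none did the difference between the ages pass. Leaving out 1 library cost the call in 8 cases for Cldn10, 7 for Cldn23 and 4 each for Cldn4 and Cldn2 (adjusted p up to 0.165). Sex as a term cost it for Cldn4 and Cldn23, the length correction for Cldn10 and Cldn23, and the replicate block for Cldn2, Cldn10 and Cldn23 (0.0557 to 0.108 over these). Cldn1, a claudin listed at E18.5 alone and picked out after its values were seen, went the other way. It read 5.73, 5.14 and 5.83 in E18.5 WT and 1.0, 3.46 and 2.77 in E18.5 Nkx. The difference was -3.16 (limma on the 6 libraries of that age, adjusted p = 0.0491).

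Genes of the cell cycle mostly read higher in the embryonic Nkx libraries. Of 40 genes, 6 rose and none fell at E18.5 (2.68% of all genes rose), and 1 rose and 1 fell at 6 months, with medians of 1.03 and -0.16. The difference passed for 3; at an unadjusted p under 0.05 there were 26 at E18.5, 6 at 6 months and 24 in the difference. At E18.5 38 of 40 had a positive effect. The mean over the list was 8.18 to 8.50 in E18.5 WT and 9.21 to 9.39 in E18.5 Nkx, and 6.48 to 7.79 in adult WT and 6.54 to 7.22 in adult Nkx. Nusap1, a spindle protein, rose by 1.51 (-0.10 in the adult) and E2f8, a transcription factor of S phase, by 1.66 (-0.57). Bub1b, a spindle checkpoint kinase, fell by 1.18 in the adult with 0.55 in the embryo (adjusted p of the difference 0.0296). Pcna, the DNA polymerase clamp, rose by 0.70 in the adult with -0.13 in the embryo and was picked out after its values were seen. The E18.5 count was 1 without E18.5 WT replicate 1 and 14 without 6-month WT replicate 2. The adult median turned to 0.14 without 6-month WT replicate 2 and to 0.06 with sex as a term.

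**Figure D5:**
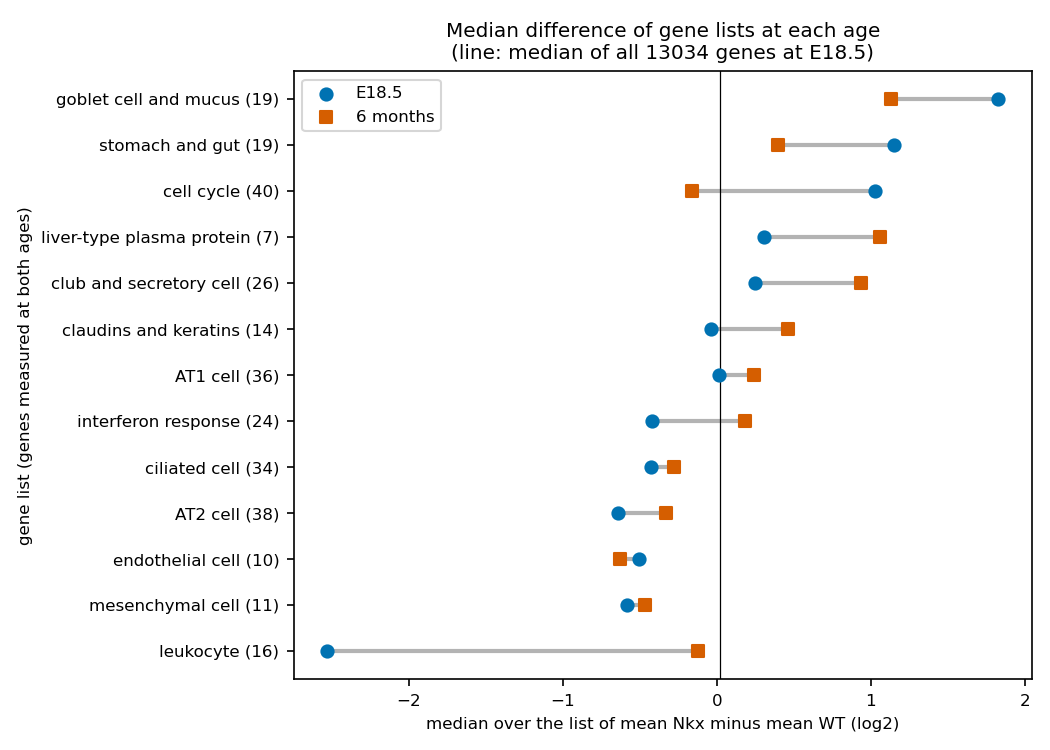
Median Nkx minus WT (log2) over the measured members of 13 gene lists at E18.5 and 6 months; the line marks the median of all genes at E18.5 (0.02). Goblet, gut and cell cycle genes lie above 1 at E18.5 and leukocyte genes at -2.53, and at 6 months goblet and club cell genes lie at 1.13 and 0.94.

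Among the signalling and stress lists, that of progenitor and signalling genes held the most calls and was also the longest. The counts below stand beside 2.68% of all genes higher and 3.75% lower at E18.5, and 1.60% each way at 6 months. Of 41 progenitor and signalling genes, 2 rose and 5 fell at E18.5 and 2 rose and 2 fell at 6 months. Wnt3a, a Wnt ligand, fell by 1.73 (-0.67 in the adult) and Id3 by 1.13 (0.24). Of 27 genes of the unfolded protein response, 1 rose and 2 fell at E18.5. These were Ern2, and Trib3 and Ddit3, a pseudokinase and a transcription factor of that response, which fell by 1.33 and 1.02 (0.26 and 0.30 in the adult). At 6 months 1 rose and 1 fell. Asns, asparagine synthetase, rose by 1.09 (0.34 in the embryo), and Ern1, a stress sensor of the endoplasmic reticulum picked out after its values were seen, fell by 0.62 (0.16 in the embryo). Of 24 interferon genes 2 fell at E18.5 and none passed at 6 months, also at an unadjusted p under 0.05; Ifit3 fell by 1.71 (0.73 in the adult). Of 17 p53 targets, Cdkn1a and Bbc3 fell at E18.5, by 1.14 and 1.17 (-0.02 and -0.15 in the adult), and none passed at 6 months (6 at an unadjusted p under 0.05). Of 29 immediate early genes, 1 rose and 1 fell at E18.5 and 1 rose at 6 months. Of 13 imprinted growth genes, Igf2 and Grb10 rose at E18.5 (Grb10 by 0.68, -0.03 in the adult) and Cdkn1c fell at 6 months (-1.11, -0.30 in the embryo). Of 3 more listed at E18.5 alone, H19 rose and Dlk1 fell, both picked out after their values were seen. Their differences were 3.235 and -1.252 (limma on the 6 libraries of that age, adjusted p = 0.00783 and 0.0455). No gene of MHC class II (7), neuroendocrine cells (10) or mesothelium (4) passed limma's test at either age; at an unadjusted p under 0.05 there were 1, 2 and 1 at E18.5 and 1, 1 and 2 at 6 months. Of 15 epithelial genes Ehf, an ETS factor, rose at E18.5 by 1.12, and of 11 mesenchymal genes Fbln1, an extracellular matrix protein, by 1.46. Of 8 basal and squamous cell genes measured at both ages, Pkp1 rose at E18.5. None of these passed in the adult. Ivl, a basal and squamous gene listed at E18.5 alone and picked out after its values were seen, went the other way. Its E18.5 difference was -3.16 (limma on the 6 libraries of that age, adjusted p = 0.00251). Of 10 endothelial genes Tek and Esam fell at E18.5 by 1.20 and 0.98 (-0.93 and -0.49 in the adult).

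Genes listed at 1 age alone cannot show a difference between the ages and were tested among the 6 libraries of that age, where 491 of 13750 genes (3.57%, 1.61% higher and 1.96% lower) passed at E18.5 and 475 of 15958 (2.98%, 1.32% higher and 1.66% lower) at 6 months. Of the 716 listed at E18.5 alone, 13 rose (1.82%) and 17 fell (2.37%). Gcnt3, an enzyme that builds the core glycans of mucins, stood at the lowest value of all 3 WT libraries and at 7.82, 8.0 and 7.91 in Nkx. Atoh1, the transcription factor of secretory cells in the gut, stood at the lowest value of all 3 WT libraries as well and at 5.94, 6.60 and 5.18 in Nkx. A4gnt, which makes the glycans of gastric mucin, read 3.12, 2.89 and 1.13 in WT and 6.26, 6.19 and 6.39 in Nkx. Adamts6, a secreted metalloprotease, fell from 10.31, 9.59 and 11.07 to 7.10, 6.43 and 6.73.

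Of the 2924 genes listed at 6 months alone, 14 rose (0.479%) and 25 fell (0.855%). Of 10 plasma protein genes of the liver type listed at this age alone, 2 rose and none fell (Ttr and Ambp), and 7 had a positive effect. Ttr, transthyretin, read 2.34, 1.32 and 2.85 in WT and 5.78, 6.25 and 6.40 in Nkx. Ambp, which encodes the light chain of the inter-alpha-trypsin inhibitor, rose by 3.23 ± 0.51 SE (adjusted p = 0.0257) and Itih3, a heavy chain of it, by 2.88 ± 0.38 SE (adjusted p = 0.0170). Avpr1a, a vasopressin receptor, fell from 9.60, 10.54 and 8.81 to 6.51, 6.14 and 5.26, and Bcan, a proteoglycan, from 10.47, 10.26 and 9.10 to 6.04, 7.14 and 6.78.

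Libraries labelled Double came from double heterozygotes, which add a NANCI allele to the Nkx2.1-GFP allele. These libraries, 3 at E18.5 and 4 at 6 months, share the WT controls with the comparison above. Their differences from WT are therefore given side by side and do not bear on it independently. Ppp1r3a was 5.21 and 5.32 above WT at E18.5 and 6 months in Double, Ros1 -2.61 and -4.58, and Bex2 -1.77 and -3.53. Agr2 was 2.76 and 6.72 above WT and Scara3 3.13 and 5.59. Kank4 (1.65 and -1.48) and Myh10 (0.90 and -2.26) had opposite signs at the 2 ages there as well, whereas Ptgs2 read -1.28 and 0.03. Tff3, which passed at E18.5 alone in Nkx, was 7.51 and 5.14 above WT in Double, and Fcgbp 5.55 and 1.83. Olfm4 (-0.61 and 2.79), Adamtsl1 (0.11 and -2.67) and Kit (0.52 and -2.77) read near or below 0 in 1 age and past 2 in the other, whereas Lyz1 read -1.47 and 0.11.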

How the data were processed

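The authors deposited 1 value per gene and library on a log2 scale. STAR, limma and the build mm9 are named in the submitters' processing notes, with no role; the sources used here give neither counting nor strandedness nor depth. The deposited log2 values shared nearly the same distribution in all libraries of an age, as quantile normalization gives, and depth cannot be read from them. The lowest value of a library was read as no reads, which is an inference. Since gene lengths were not divided out, levels are compared within a gene.

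A linear model of 4 group means was fitted to the 12 libraries (limma 3.58.1, R 4.3.3), with a mean-variance trend in the empirical Bayes step, over the 13034 genes of both ages. The contrasts were Nkx minus WT at each age and the 6-month minus the E18.5 effect, with Benjamini-Hochberg adjustment and a threshold of 0.05. Genes of 1 age were fitted on its 6 libraries. The scripts were tested on simulated data. Members, classes and the 26 gene lists were chosen with earlier results of these data known.

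Named genes were, among those with a mean of at least 5 and an established symbol, the 8 per direction with the largest smaller effect in the agreeing class, up to 12 opposing genes, the 8 per direction and age with the largest difference of effects in the classes of 1 age alone, up to 4 called members of each list, and the 4 largest changes per direction among genes of 1 age; exceptions are marked in the text, and some genes that the rule names are not reported here. Symbols came from GENCODE by gene identifier, and from RefSeq where GENCODE gave none. Exon lengths (12946 of 13034 genes matched) came from GENCODE and promoters from RefSeq, on GRCm38 and not the authors' build. Alternatives were all 22 libraries in 1 model, array weights (1 per age), no trend, joint quantile normalization and sex as a covariate. A filter on the mean, a replicate block and leaving out each library were also tried. Raising low values to a common lowest value of 3.07 was chosen after seeing the data. So was removing each library's trend in exon length (lowess, span 0.3). Figures were drawn with matplotlib 3.10.9.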

Additional observations from a re-analysis of the deposited data

Results flagged for a closer look

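For 278 of 13034 genes the Nkx minus WT difference at 6 months departed from that at E18.5 by the test of the difference itself. The genes named here are given by the 6-month effect minus the E18.5 effect on the log2 scale. A positive value means that the adult difference was the more positive.

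Positive values came mainly from genes lower in the embryonic Nkx libraries. Macrophage and immune genes had 5.04 for F13a1, 4.53 for Adgre1, 4.34 for Slfn2, 3.89 for Mrc1 and 1.61 for Usp18. Epithelial genes had 3.05 for Rtkn2, 2.69 for Scgb1a1 and 1.30 for Id2. Lyz2, a gene of AT2 cells and macrophages, had 2.18, and Cav1, of AT1 and endothelial cells, had 0.98. Cped1, Nwd2, Cst8 and Zmat4 had 3.90, 3.77, 3.27 and 2.62. Genes higher in the adult Nkx libraries had 3.91 for Olfm4, 2.73 for Lyz1, 2.66 for Edn2, 2.44 for Veph1, 2.24 for Sphk1, 1.87 for Epdr1, 1.64 for Lpcat2 and 1.47 for Iyd. The opposing genes Ptgs2 and Elf5 had 2.35 and 1.02. Maff, an immediate early transcription factor that passed at neither age by itself, had 1.24.

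Negative values came mainly from genes higher in the embryonic Nkx libraries. Gut and mucus genes had -7.58 for Guca2a, -6.83 for Tff3, -5.22 for Fcgbp, -5.09 for Muc2 and -3.21 for Ern2. Ces1c, Pkp1, Pdlim4, Grin2b, Cys1, Chia1 and Ccl9 had -6.20, -5.31, -5.03, -3.65, -3.53, -3.23 and -3.05. Igf2 and Ccna2 had -1.79 and -1.55. The opposing genes Kank4, Nup210, Myh10 and Lamc1 had -2.72, -1.78, -1.56 and -1.29. Genes lower in the adult Nkx libraries had -5.07 for Greb1, -2.61 for Armcx4, -2.45 for Adamtsl1, -2.26 for Kit, -2.15 for Rasd2, -2.05 for Atp6v0a4, -2.05 for Col7a1, -2.03 for Zfp618 and -1.73 for Bub1b.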

How the results depend on the processing

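No call of a named gene reversed its sign under any alternative run. Of 186 called values of named genes, 78 kept their call when each of the 12 libraries was left out in turn and 111 under all 9 other settings; sex as a term cost 52 calls, array weights 28, the replicate block 25 and the length correction 19. Counts moved by over 1.5 times as follows. With all 22 libraries in 1 model, 723 genes passed at 6 months, 452 in the difference, 13 opposed and 117 passed at 6 months alone. With array weights 468 passed at E18.5 and 1218 at 6 months, Nkx2-1 (-0.52) among them. Joint normalization of both ages gave 625 at 6 months. With sex as a term 130 passed at 6 months and 136 in the difference, and 44 agreed, 3 opposed, and 103 and 13 passed at E18.5 and 6 months alone. The main model held no replicate block. The correlation of same-numbered deviations was -0.297, -0.176 and -0.252 at 6 months and -0.18, 0.496 and 0.413 at E18.5. Between E18.5 replicates 2 and 3 the differently numbered pairs gave -0.5 and -0.524, so these libraries did go with their number. Whether they shared a batch was not tested. The replicate block gave 891, 351 and 250 calls at E18.5, 6 months and in the difference, with 101 agreeing, 9 opposing, and 175 and 46 at 1 age alone. Among the genes listed at 1 age, E18.5 calls went from 30 to 17 with a mean of at least 5 and to 59 with the replicate block, and 6-month calls from 39 to 2 without the trend and to 0 with the block, where limma gave 275 at an unadjusted p under 0.05.

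Leaving out 1 library gave 424 to 2154 genes at E18.5, 78 to 766 at 6 months, 57 to 1441 in the difference, 30 to 180 agreeing, 0 to 34 opposing, 42 to 855 at E18.5 alone and 10 to 204 at 6 months alone. The highest counts came without E18.5 WT replicate 3 and the lowest without E18.5 WT replicate 1, 6-month WT replicate 2 (agreeing) or 6-month Nkx replicate 2. Genes listed at 1 age gave 13 to 54 calls at E18.5 and 1 to 38 at 6 months, the lowest without E18.5 WT replicate 1 and 6-month Nkx replicate 1. The E18.5 effect of Nkx2-1 ranged from -0.065 to 0.16 and turned negative without E18.5 WT replicate 1 or E18.5 Nkx replicate 3 (-0.000415). Its adult effect ranged from -0.62 to -0.43 and the difference from -0.69 to -0.45. The cause of these changes was not tested. Depth is unknown, and no interval could be set on low values.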
